A study of Mus musculus with 12 samples.

Results

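The distal convoluted tubule is the short segment of the nephron that follows the thick ascending limb and reabsorbs sodium chloride, magnesium and calcium under hormonal control. Its hallmark is the thiazide-sensitive sodium chloride cotransporter NCC, encoded by Slc12a3. NCC is switched on by phosphorylation through a kinase cascade, in which the WNK kinases Wnk1 and Wnk4 activate SPAK, encoded by Stk39, and in which the adaptor Klhl3 marks the WNK kinases for degradation by a Cullin 3 ubiquitin ligase. Described here are 10 genes of this segment, of 23420 genes in the count table, chosen by name for their role. No measured value enters the rule, but earlier results of these data were known when it was made. They are Slc12a3, the magnesium channel gene Trpm6, the calcium-binding protein genes Pvalb and Calb1, the apical calcium channel gene Trpv5, the sodium-calcium exchanger gene Slc8a1, and the control genes Wnk1, Wnk4, Klhl3 and Stk39.

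RNA was sequenced from 12 kidneys of male C57BL/6J mice aged 8 to 15 weeks, with 4 kidneys in each of 3 groups. The middle of each kidney went to histology, and the RNA came from the rest of the organ. The control kidneys were taken at nephrectomy, and the other 8 underwent ischemia with a clamp on the renal pedicle and 24 h of reperfusion, either in conscious or in anaesthetised mice. The sample labels give 20 min of ischemia, and give it for the controls too. For the 8 ischemic kidneys the title says the opposite of the group field. Ischemia set A has ANESTH in its titles and conscious as its group, ischemia set B has CONCIOUS in its titles and anesthesia as its group, and which of them was anaesthetised is left unassigned. The mice with ischemia had undergone surgery to place the clamp, and whether a control kidney and an ischemic kidney came from the same mouse is not given in the sources used here. The samples are named only by number, so the p-values measure the spread between these kidneys.

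All 10 genes passed the filter on low counts, which left 11664 genes, and between 15367342 and 44793350 counts were assigned to genes in a kidney. Values are CPM, the counts scaled to library size, with TMM factors between 0.968 and 1.03. A floor of 3 counts corresponds to between 0.067 and 0.195 CPM and covers counting error only. In set A against control, 22.3% of the genes tested passed the threshold (10.5% higher and 11.7% lower), an adjusted p below 0.05 by the quasi-likelihood test of edgeR after Benjamini-Hochberg adjustment over all genes. In set B against control this share was 22.8% (10.9% higher and 11.9% lower). The median log2 fold change of all genes tested lay at -0.02 in both.

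Against this background, 4 of the 10 genes fell in set A (Calb1, Slc8a1, Wnk1 and Klhl3) and none rose. In set B the same 4 genes and Pvalb fell, while Trpv5 and Stk39 rose. The calls of these last 3 genes in set B depended on single kidneys, and Pvalb kept its call in 4, Trpv5 in 7 and Stk39 in 7 of the 12 fits that each left out a kidney. Pvalb passed the filter on low counts only through the control kidneys, so it could enter the test only as a gene lower after ischemia. Slc12a3, Trpm6 and Wnk4 passed the threshold in neither set. The median log2 fold change of the 10 genes was -0.52 for set A and -0.58 for set B. Both comparisons use the same 4 control kidneys. All 10 genes had counts in every control kidney, and Slc12a3, the defining gene of the segment, had 675 CPM or more in each of the 12 kidneys. Since this is bulk kidney tissue, fewer cells of a type and less RNA per cell cannot be told apart.

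**Figure D1:**
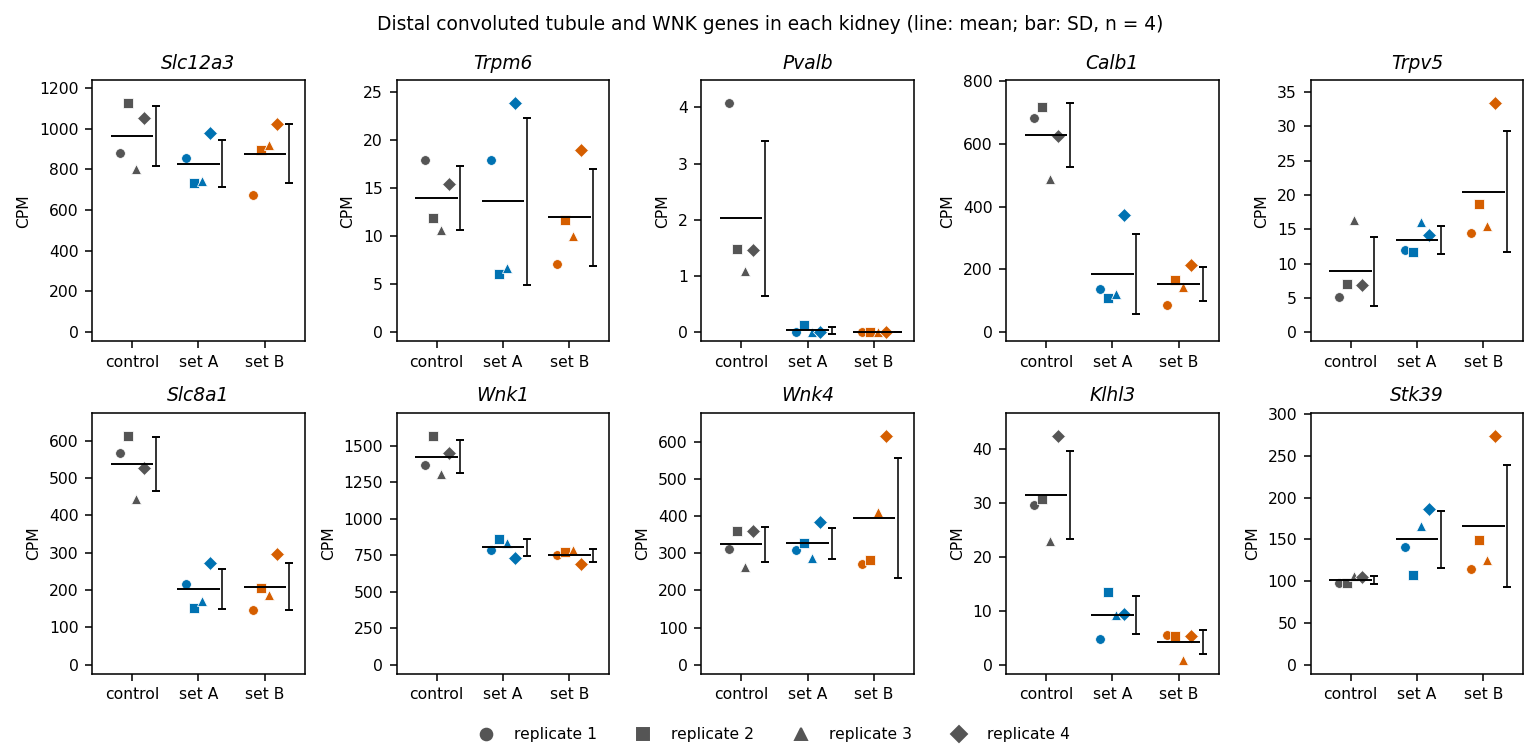
CPM (vertical axes, linear) of the 10 genes in each of the 12 kidneys, with a symbol for each replicate number, a horizontal line for the group mean and a bar for the SD (n = 4). Every kidney of both ischemia sets lay below every control kidney for Pvalb, Calb1, Slc8a1, Wnk1 and Klhl3 and above every control kidney for Stk39, while the groups overlapped for Slc12a3, Trpm6, Trpv5 and Wnk4.

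The promoter windows of the cotransporter, of 3 genes that fell and of a gene that was higher in every ischemic kidney are shown to put the sequences near their starts side by side. Each window is the RefSeq sequence of GRCm38.p6 from 250 bases before to 50 bases after the annotated start, read in the direction of transcription. The RefSeq starts can differ from the GENCODE gene positions given below. By those positions the Stk39 window lies wholly inside its gene and the Klhl3 window wholly before its gene. The capitals mark matches, on either strand, to the TATA box letters TATAAA and to the GC box letters GGGCGG.
Slc12a3, chr8:94328958-94329257, plus strand: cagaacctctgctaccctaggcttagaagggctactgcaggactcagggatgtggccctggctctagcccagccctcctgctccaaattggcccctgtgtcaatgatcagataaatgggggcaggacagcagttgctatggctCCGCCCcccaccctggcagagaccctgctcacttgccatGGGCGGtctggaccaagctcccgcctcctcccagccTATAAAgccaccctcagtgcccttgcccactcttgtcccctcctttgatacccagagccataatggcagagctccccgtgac
Slc8a1, chr17:81738338-81738637, minus strand: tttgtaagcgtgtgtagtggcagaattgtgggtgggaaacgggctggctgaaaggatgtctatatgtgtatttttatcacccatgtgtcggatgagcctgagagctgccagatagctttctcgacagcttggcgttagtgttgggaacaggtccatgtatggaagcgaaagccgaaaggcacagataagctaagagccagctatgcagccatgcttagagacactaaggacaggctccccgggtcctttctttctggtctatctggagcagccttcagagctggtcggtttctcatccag
Wnk1, chr6:120038606-120038905, minus strand: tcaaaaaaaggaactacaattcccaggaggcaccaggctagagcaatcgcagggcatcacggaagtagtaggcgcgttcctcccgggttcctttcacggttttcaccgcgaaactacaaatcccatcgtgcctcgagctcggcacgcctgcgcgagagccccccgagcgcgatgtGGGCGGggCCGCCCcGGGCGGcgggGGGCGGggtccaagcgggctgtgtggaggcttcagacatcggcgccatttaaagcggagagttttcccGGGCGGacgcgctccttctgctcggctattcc
Klhl3, chr13:58113598-58113897, minus strand: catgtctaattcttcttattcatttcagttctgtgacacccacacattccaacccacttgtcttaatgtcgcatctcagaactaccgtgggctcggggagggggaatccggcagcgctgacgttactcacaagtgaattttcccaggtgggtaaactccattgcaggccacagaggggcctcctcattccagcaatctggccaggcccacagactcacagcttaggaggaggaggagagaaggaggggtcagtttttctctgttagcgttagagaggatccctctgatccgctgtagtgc
Stk39, chr2:68471932-68472231, minus strand: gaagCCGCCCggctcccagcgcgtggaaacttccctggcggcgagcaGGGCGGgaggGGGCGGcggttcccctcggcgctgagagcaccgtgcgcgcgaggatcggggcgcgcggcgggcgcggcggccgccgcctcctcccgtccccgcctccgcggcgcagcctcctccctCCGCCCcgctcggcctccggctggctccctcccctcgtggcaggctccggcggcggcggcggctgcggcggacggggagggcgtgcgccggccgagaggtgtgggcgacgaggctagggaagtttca

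Such a window was in the table for 9 of the 10 genes, and Calb1 had none. The Slc12a3 window held both motifs, with 1 TATAAA and 2 GGGCGG, a combination found in 2.04% of all 32851 windows. The Wnk1 window held 5 GGGCGG, the Stk39 window 4 and the Wnk4 window 3, where 35.7% of all windows held at least 1. TATAAA stood in 13.6% of all windows and, besides Slc12a3, in that of Trpv5. The windows of Slc8a1 and Klhl3 held neither. The share of G and C was 80.0% for Stk39, 63.7% for Wnk1, 60.3% for Slc12a3, 52.3% for Klhl3 and 50.7% for Slc8a1, with a median of 52.7% over all windows. A match describes the letters of the window and not the binding of a factor. Among the genes that fell in both sets, Wnk1 had GC boxes and Slc8a1 and Klhl3 did not.

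Slc12a3 is a gene of the plus strand of chromosome 8 (94329201 to 94366214 in mm10, as all positions here). Its level was 879, 1125, 803 and 1050.3 CPM in the control kidneys. It was 857, 731, 743 and 978 CPM in set A and 675, 892, 918 and 1020.4 CPM in set B. The 3 ranges overlapped, and the highest kidney of a group exceeded the lowest by at most 1.51-fold. The log2 fold change was -0.22 in set A (95% interval -0.52 to 0.08, edgeR adjusted p = 0.327) and -0.14 in set B (95% interval -0.43 to 0.16, edgeR adjusted p = 0.590). No difference from the controls was thus detected in either set, and a decrease as large as log2 -0.52 lies within the interval of set A.

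Transporters of other segments of the nephron had other values in the same kidneys. Slc12a1, which encodes the NKCC2 cotransporter of the thick ascending limb, had 1512 ± 42.3 CPM (SD, n = 4) in control kidneys and fell to 179 ± 16.5 CPM for set A and 256 ± 184 CPM for set B. Without replicate 4 of set B, at 529 CPM, the mean of that set was 165 ± 36.1 CPM (SD, n = 3), which is 9.16-fold lower than the control mean. With all 4 kidneys, its log2 fold changes were -3.07 (SE 0.31, edgeR adjusted p = 3.09e-07) and -2.56 (SE 0.30, edgeR adjusted p = 2.61e-06). Slc34a1, the sodium phosphate cotransporter of the proximal tubule, fell as well, with log2 fold changes of -3.55 and -3.53 (SE 0.29 in both, edgeR adjusted p = 2.45e-08 and 2.66e-08). Of 8 marker genes of the proximal tubule, 8 fell in each set, with a median of -2.61 and -2.82. Of 8 marker genes of the thick ascending limb, 2 fell in each set, and Umod, which encodes uromodulin, had 115 ± 3.25 CPM in the controls and 128 CPM on average in each set. Of 6 tested marker genes of collecting duct principal cells none passed the threshold in either set, with medians of -0.23 and 0.16. Of 6 intercalated cell genes, 2 fell for set A and 1 for set B. Of 6 genes of tubular injury, 5 rose in each set and none fell, and of 4 tested leukocyte genes 1 fell in each set and none rose. Slc12a3 thus had no called change in kidneys in which Slc12a1 and Slc34a1 fell, and the differences between these genes were not tested.

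Trpm6 encodes the apical magnesium channel of the segment and lies on chromosome 19 (18749983 to 18892511). It had 17.9, 11.9, 10.7 and 15.4 CPM in the controls, 17.9, 6.03, 6.72 and 23.8 CPM in set A and 7.07, 11.7, 10.01 and 19.0 CPM in set B. Within set A the kidneys differed up to 3.95-fold, with 2 kidneys below and 2 above all controls, of which replicate 1 exceeded the highest control by less than the printed digits show. The log2 fold change was -0.04 in set A (95% interval -0.98 to 0.90) and -0.23 in set B (95% interval -1.17 to 0.71), with edgeR adjusted p-values of 0.976 and 0.817. These intervals span changes in either direction.

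Trpv5, on the minus strand of chromosome 6 (41652173 to 41680769), encodes the apical channel through which calcium enters the cell. Its control values were 5.18, 7.07, 16.3 and 6.90 CPM, with replicate 3 far above the others. It had 11.96, 11.7, 16.0 and 14.1 CPM in set A and 14.4, 18.7, 15.5 and 33.4 CPM in set B. Both sets lay above 3 of the 4 controls, and control replicate 3 lay above every kidney of set A and within the range of set B. The gene rose in set B by a log2 fold change of 1.21 (SE 0.40, 2.31-fold, edgeR adjusted p = 0.0337). In set A the log2 fold change was 0.60 (SE 0.39, edgeR adjusted p = 0.341). The exact permutation test of the CPM, which uses no model, gave p = 0.0857 for set B against control (two-sided, 4 kidneys against 4). Without replicate 4 of set B, its highest kidney, the log2 fold change was 0.87 and the edgeR adjusted p 0.149. The call in set B was also lost when control replicate 1, 2 or 4 or set B replicate 2 was left out (edgeR adjusted p between 0.0579 and 0.103), and with only control and set B in the fit (edgeR adjusted p = 0.0593).

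Calb1 encodes calbindin-D28k, which carries calcium through the cytosol of the distal tubule, and lies on chromosome 4 (15881264 to 15908064). It had 684, 718, 488 and 625 CPM in the controls. It had 136, 109, 122 and 375 CPM in set A and 85.1, 167, 145 and 215 CPM in set B. All 8 ischemic kidneys lay below all 4 controls, with replicate 4 the highest of each set. Calb1 fell 3.39-fold in set A (log2 fold change -1.76, SE 0.32, edgeR adjusted p = 3.85e-04) and 4.11-fold in set B (log2 fold change -2.04, SE 0.33, edgeR adjusted p = 9.73e-05). In set A the value ranged from -2.38 without replicate 4 of that set to -1.58.

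Slc8a1, on the minus strand of chromosome 17 (81373105 to 81738377), encodes the exchanger NCX1, which moves calcium out of the cell across the basolateral membrane. Its levels were 567, 613, 443 and 527 CPM in the controls, 216, 152, 171 and 273 CPM for set A and 148, 205, 187 and 296 CPM for set B. No ischemic kidney reached the lowest control. The gene fell 2.65-fold in set A (log2 fold change -1.41, SE 0.20, edgeR adjusted p = 2.49e-05) and 2.57-fold in set B (log2 fold change -1.36, SE 0.20, edgeR adjusted p = 3.59e-05). Slc8a1 is also active in muscle cells. Of 5 smooth muscle and pericyte genes, Acta2 and Tagln rose in each set and none fell, while Myh11 averaged 106 CPM in the controls, 92.6 CPM for set A and 99.4 CPM for set B. The summed level of the 5 genes, of which Acta2 made up the largest part, was 343 to 523 CPM in the controls, 667 to 1600.3 CPM for set A and 716 to 1112 CPM for set B. The part of muscle cells in the Slc8a1 values was not tested. The exons of Slc8a1 share bases with 2 annotated genes of the opposite strand, AC122399.1 and Gm11096, and whether the counting used strand is not given in the sources used here.

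Pvalb encodes parvalbumin, a calcium buffer of the early distal convoluted tubule, and lies on the minus strand of chromosome 15 (78191114 to 78206400). It had 85, 57, 28 and 56 counts in the controls. It had 0, 3, 0 and 0 counts in set A and no count in set B. In CPM the controls held 4.08, 1.48, 1.08 and 1.46, so that the gene was low in the controls too. The pooled counts of set A, 3 against 226 in the controls, give a level 69.7-fold lower (95% counting interval 23.6 to 340.5). All 3 counts lay in replicate 2, and without it set A was at least 17.8-fold lower, against a floor of 3 counts in each library. In set B, against the same floor, the gene was at least 12.9-fold lower. Control replicate 1 raised these values, and without it the pooled ratio of set A was 51.9-fold lower and the bound of set B at least 8.52-fold. The fitted fold change had an edgeR adjusted p of 0.111 for set A and 0.0327 for set B, and the call in set B was lost when any control or set B kidney was left out (edgeR adjusted p between 0.0508 and 0.0861). Skeletal muscle also makes parvalbumin, and 7 of its marker genes summed to 0.026 to 4.02 CPM in the controls, 0.599 to 2.92 CPM for set A and 0 to 0.977 CPM for set B. Of the 7, 4 had no count in any control kidney (Ckm, Myh4, Mylpf and Tnnt3), 3 in any kidney of set A (Ckm, Myh1 and Myh4) and 6 in any of set B (all but Acta1). Its part in the Pvalb values was not tested. With DESeq2, limma-trend or a fit of control and set A alone, Pvalb also passed in set A, at adjusted p-values of 0.0189, 0.00904 and 0.0474.

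Wnk1 encodes the kinase at the top of the cascade and lies on the minus strand of chromosome 6 (119923969 to 120038672). Its levels were 1371, 1570.0, 1306 and 1454 CPM in the controls, 786, 864, 834 and 731 CPM in set A and 750.4, 772, 788 and 689 CPM in set B. The groups were narrow, with at most 1.20-fold between the highest and lowest kidney of a group, and the controls lay well above both sets. Wnk1 fell 1.77-fold in set A (log2 fold change -0.83, SE 0.10, edgeR adjusted p = 4.89e-06) and 1.90-fold in set B (log2 fold change -0.93, SE 0.10, edgeR adjusted p = 1.29e-06). The distal convoluted tubule makes a shorter, kidney-specific form of this kinase that lacks kinase activity, besides the full-length form made in most cells. The counts are summed over the gene and cannot tell the forms apart.

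Wnk4, on the plus strand of chromosome 11 (101260567 to 101277409), encodes the WNK kinase that acts chiefly in the distal nephron. It had 313, 362, 263 and 361 CPM in the controls, 308, 327, 288 and 384 CPM for set A and 271, 283, 411 and 617 CPM for set B. The groups overlapped throughout, and set B had the widest spread, with replicate 4 at its top. The log2 fold change was 0.01 in set A (95% interval -0.42 to 0.43, edgeR adjusted p = 0.986) and 0.28 in set B (95% interval -0.14 to 0.71, edgeR adjusted p = 0.387). Without replicate 4 of set B its log2 fold change in set B was -0.02. An exon of Wnk4 overlaps Gm11615 on the opposite strand.

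Klhl3, on the minus strand of chromosome 13 (58000228 to 58113592), encodes the adaptor that binds WNK kinases for ubiquitination. Its levels were 29.6, 30.7, 22.9 and 42.5 CPM in the controls, 4.70, 13.4, 9.25 and 9.33 CPM in set A and 5.56, 5.31, 0.870 and 5.27 CPM in set B. The sets lay below all controls, and 3 of the 4 kidneys of set B lay between 5.27 and 5.56 CPM, with replicate 3 below them. Klhl3 fell 3.43-fold in set A (log2 fold change -1.78, SE 0.46, edgeR adjusted p = 8.04e-03) and 7.39-fold in set B (log2 fold change -2.89, SE 0.49, edgeR adjusted p = 1.64e-04). Between the sets the log2 fold change was -1.11 (95% interval -2.08 to -0.14), with an unadjusted p of 0.0273 in edgeR's quasi-likelihood test and an adjusted p of 0.941.

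Stk39, on the minus strand of chromosome 2 (68210445 to 68472268), encodes SPAK, the kinase that phosphorylates NCC. The controls were close together, at 97.2, 97.8, 106 and 105 CPM. The kidneys of set A had 141, 107, 166 and 186 CPM and those of set B 115, 149, 126 and 274 CPM. Every ischemic kidney lay above every control, with the lowest of set A, at 107 CPM, next to the highest control, at 106 CPM. Stk39 rose 1.63-fold in set B (log2 fold change 0.71, SE 0.23, edgeR adjusted p = 0.0288), while in set A the log2 fold change was 0.56 (SE 0.23, edgeR adjusted p = 0.0843). Without replicate 4 of set B, its value in set B was 0.35 with an edgeR adjusted p of 0.163, and the call was also lost without any single control (edgeR adjusted p between 0.0537 and 0.0675). In set A the gene passed without set A replicate 2, the lowest of that set (0.69, edgeR adjusted p = 0.0382), without set B replicate 4 (edgeR adjusted p = 0.0113), or with only control and set A in the fit (edgeR adjusted p = 0.0131).

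**Figure D2:**
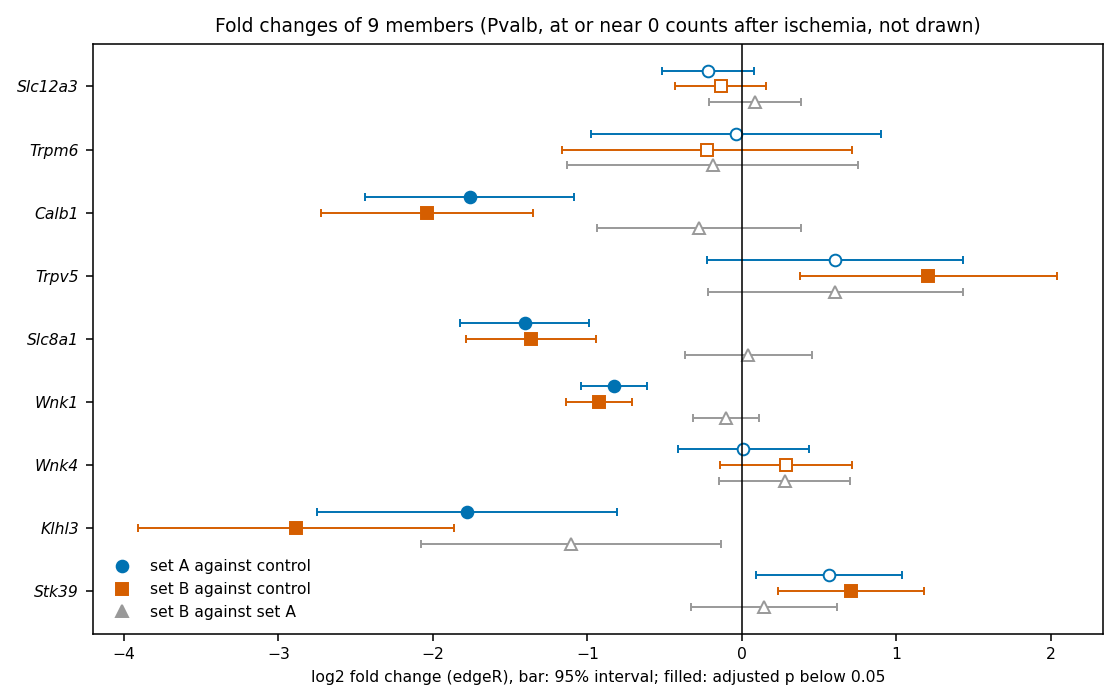
Log2 fold changes (horizontal axis) of 9 genes for both comparisons with control and for set B against set A, with 95% intervals as bars and filled symbols for an edgeR adjusted p below 0.05. Calb1, Slc8a1, Wnk1 and Klhl3 lie to the left of 0 with filled symbols in both sets, Trpv5 and Stk39 to the right with a filled symbol in set B, and all symbols of set B against set A are open.

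For the 6 genes whose groups did not overlap (Pvalb, Calb1, Slc8a1, Wnk1 and Klhl3 lower, Stk39 higher), the lack of overlap fixes the two-sided exact permutation p of the CPM at 0.0286, the smallest that groups of 4 allow. Over the 30 such tests of the 10 genes none passed after Benjamini-Hochberg adjustment, and the smallest adjusted p of these exact tests was 0.0714. A gene could pass only if most of the 30 tests reached the smallest possible p, so this outcome says little. The count of 6 genes is a description of the ranges. Of all 11664 genes tested, 28.2% had no overlap with the controls for set A (15.7% lower and 12.6% higher) and 26.7% for set B (15.1% lower and 11.6% higher).

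Between the ischemia sets, 0.00857% of the genes tested (1 gene) passed the adjusted threshold in edgeR and 587 genes had an unadjusted p below 0.05. DESeq2 called 27 genes, edgeR without a filter 6 and edgeR with a kidney left out 0 to 7. None of the 10 genes passed in edgeR or in DESeq2, and 1 of them, Klhl3, had an unadjusted p below 0.05 in edgeR. The median log2 fold change of the 10 genes was -0.03. The 95% intervals of set B against set A ran from -0.21 to 0.38 for Slc12a3, from -0.31 to 0.11 for Wnk1 and from -0.37 to 0.45 for Slc8a1. For Trpv5 (-0.22 to 1.43), Calb1 (-0.94 to 0.38), Stk39 (-0.33 to 0.61), Wnk4 (-0.15 to 0.70) and Trpm6 (-1.13 to 0.75) they were wider. The interval of Pvalb, at or near 0 counts in both sets, ran from -7.33 to 1.43. Pvalb, Trpv5 and Stk39 were called in set B only, and the test of the difference between the sets passed for none of them.

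The level of each gene was also taken relative to Slc12a3 in the same kidney, which does not use the scaling of the libraries. On this log2 scale Calb1 went from -0.62 ± 0.18 (SD, n = 4) in the controls to -2.35 ± 0.64 for set A and -2.58 ± 0.32 for set B. Slc8a1 went from -0.84 ± 0.15 to -2.05 ± 0.18 and -2.10 ± 0.22. The ratio of Wnk1 went from 0.57 ± 0.12 to -0.03 ± 0.30 and -0.21 ± 0.29, and that of Klhl3 from -4.96 ± 0.26 to -6.57 ± 0.73 and -7.95 ± 1.35. For these 4 genes both sets lay below all controls. Pvalb did so too, from -9.02 ± 0.86 to -13.07 ± 0.85 and -13.51 ± 0.25, where the prior count sets the values of kidneys without counts. The ratios reuse the CPM of each gene, and the share of all genes whose ratios do not overlap was not computed. The ratio of Stk39 went the other way, from -3.23 ± 0.25 to -2.48 ± 0.26 and -2.48 ± 0.41, with no overlap. Wnk4 lay above all controls in set A, with a difference of 0.23, and overlapped them in set B, with 0.35. Trpv5 differed by 0.95 and 1.40 and Trpm6 by -0.03 and -0.14, with overlap in both sets. Each ratio whose groups did not overlap had an exact permutation p of 0.0286. Over the 27 ratios tested, none passed after Benjamini-Hochberg adjustment, and the smallest adjusted p of these exact tests was 0.0593. With groups of 4, a ratio could pass only if most of the 27 tests reached the smallest possible p, so this outcome says little.

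**Figure D3:**
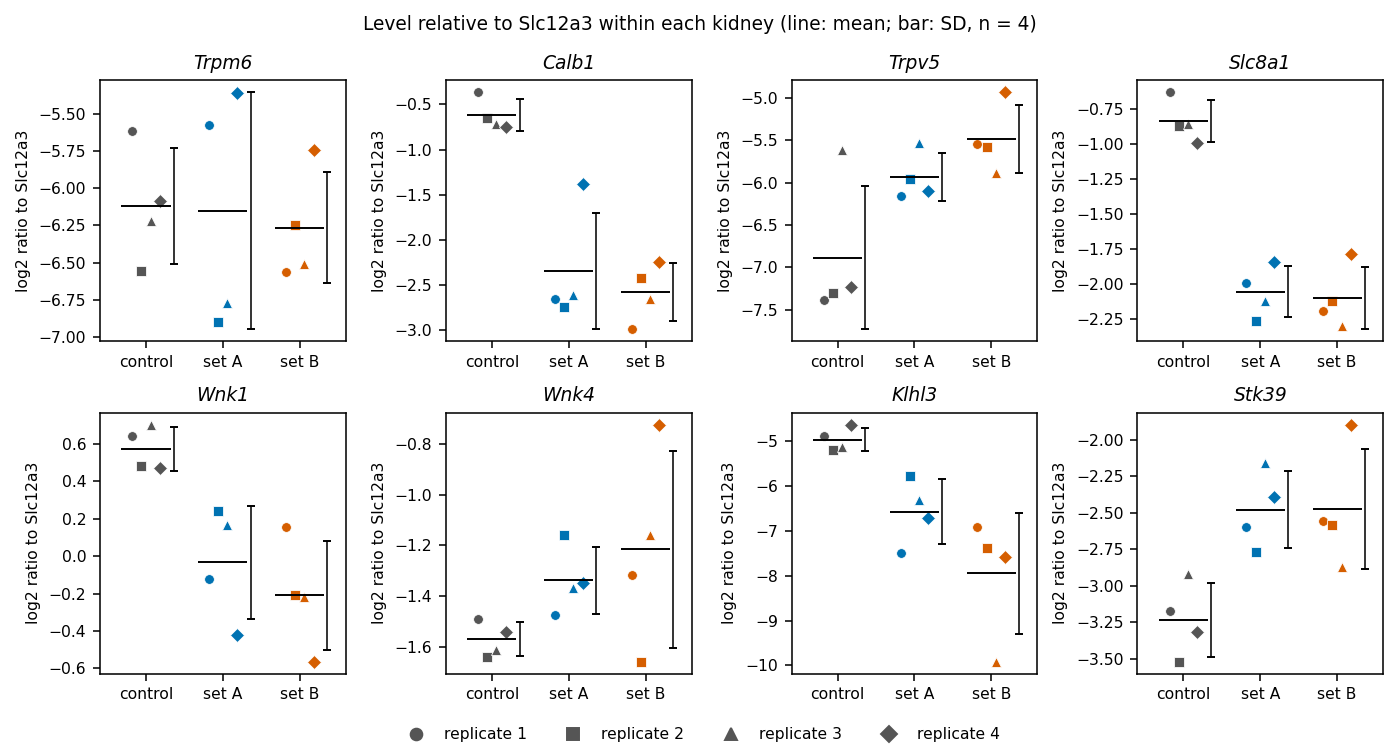
Log2 ratio to Slc12a3 (vertical axes, each with its own range, computed with a prior count of 2) of 8 genes in each of the 12 kidneys, with a symbol for each replicate number, lines for means and bars for SD (n = 4). The ratios of Calb1, Slc8a1, Wnk1 and Klhl3 lie below the controls in every ischemic kidney and those of Stk39 above them.

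Per kilobase of annotated exon, the order of the levels in the controls was Calb1 (129.7 ± 21.0 CPM per kb, SD, n = 4), Slc12a3 (86.7 ± 13.4), Wnk4 (78.3 ± 11.4), Wnk1 (62.4 ± 4.98), Slc8a1 (28.6 ± 3.85), Stk39 (20.5 ± 0.963), Klhl3 (4.29 ± 1.11), Trpv5 (2.73 ± 1.55), Pvalb (1.95 ± 1.33) and Trpm6 (1.81 ± 0.426). In that order the ranges of neighbours overlapped except between Wnk1 and Slc8a1, between Slc8a1 and Stk39 and between Stk39 and Klhl3. In set A the mean level per kilobase of Calb1 (38.3 ± 26.2) was above that of Wnk1 (35.2 ± 2.54) and Stk39 (30.3 ± 6.88), with 77.4 CPM per kb in replicate 4 and 28.1, 22.5 and 25.2 CPM per kb in the others. In set B the order of level per kilobase began with Wnk4 (95.4 ± 38.8) and Slc12a3 (78.8 ± 13.1), followed by Stk39 (33.5 ± 14.8), Wnk1 (32.9 ± 1.90) and Calb1 (31.6 ± 11.1). Replicate 4 of set B, at 55.3 CPM per kb, placed Stk39 ahead of Wnk1 and Calb1 there, and the other 3 kidneys had 23.2, 30.1 and 25.3 CPM per kb of Stk39. The exon lengths are those of GENCODE M21 over all transcripts of a gene and range from 1041 bases for Pvalb to 22825 for Wnk1, so that a level per kilobase of a gene with many forms is understated.

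Of 14 further genes of the WNK pathway, 4 fell in each set and none rose (median log2 fold change -0.08 and -0.14). They were Wnk2, another WNK kinase (-1.44 and -0.92), Cul3, the scaffold of the ligase that Klhl3 joins (-0.49 and -0.48), Ppp1r1a, an inhibitor of protein phosphatase 1 (-1.73 and -1.49), and Slc12a1, another target of SPAK. Without replicate 4 of set B, the mean CPM of Ppp1r1a in set B was 4.35-fold lower than that of the controls, against a fitted log2 value of -1.49 with it. Cul3 went from 1373 ± 109 CPM (SD, n = 4) to 980.0 ± 135 for set A and 985 ± 166 for set B (edgeR adjusted p = 8.50e-03 and 9.27e-03). Oxsr1, which encodes OSR1, the kinase closest to SPAK, had a log2 fold change of 0.47 and 0.50 (edgeR adjusted p = 0.0894 and 0.0714). The scaffold protein gene Cab39, which encodes the SPAK activator MO25, had 0.32 and 0.33 (edgeR adjusted p = 0.212 and 0.193). Nedd4l, the ubiquitin ligase that acts on sodium channels and NCC, had -0.22 and -0.25, and Sgk1, the aldosterone-induced kinase, 0.25 and 0.77, without passing. Klhl2, the nearest relative of Klhl3, had -0.05 and -0.13 (edgeR adjusted p = 0.917 and 0.706).

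Of 13 further genes of basolateral transport and magnesium handling, 6 fell and 1 rose in each set (median log2 fold change -0.58 and -0.93). Kcnj16, which encodes the Kir5.1 subunit of the basolateral potassium channel, fell by 1.14 and 0.93 on the log2 scale (edgeR adjusted p = 5.00e-05 and 4.08e-04). Its partner gene Kcnj10, which encodes Kir4.1, had 13.3 ± 3.68 CPM (SD, n = 4) in the controls, 8.94 ± 2.65 for set A and 14.6 ± 10.2 for set B and passed in neither. Atp1b1, which encodes the beta subunit of the sodium pump, fell in both sets (-0.89 and -0.85). Genes of magnesium handling that fell in both sets were Trpm7, the channel kinase related to Trpm6 (-1.06 and -0.98), Cnnm2 (-0.82 and -0.93), Egf, whose product stimulates Trpm6 (-5.68 and -7.03), and Pcbd1 (-1.84 and -2.07). Slc41a1, a magnesium transporter gene, rose in both (0.95 and 0.72, edgeR adjusted p = 8.96e-04 and 8.46e-03).

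Of 10 further genes of distal calcium handling, 9 were tested, and Fgf23 had no count in any kidney. In each set 4 fell and none rose. They were the vitamin D receptor gene Vdr (-1.16 and -1.46), Kl, which encodes klotho (-2.54 and -3.20), the calcium-sensing receptor gene Casr (-1.43 and -1.07) and the parathyroid hormone receptor gene Pth1r (-1.63 and -1.70). Kl had 682 ± 217 CPM (SD, n = 4) in the controls, 117 ± 24.6 for set A and 74.2 ± 11.6 for set B (edgeR adjusted p = 2.77e-08 and 2.38e-09). The calcium pump gene Atp2b1, whose product extrudes calcium beside NCX1, had 174 ± 13.99 CPM in the controls, 199 ± 16.0 for set A and 187 ± 45.7 for set B, with log2 fold changes of 0.19 and 0.10 (edgeR adjusted p = 0.506 and 0.768). S100g, which encodes calbindin-D9k, was near the floor, with 0 to 4.36 CPM over the 12 kidneys. Several of these genes are also active in other segments, Pth1r in the proximal tubule and Casr in the thick ascending limb, and the part of those segments in these values was not tested.

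**Figure D4:**
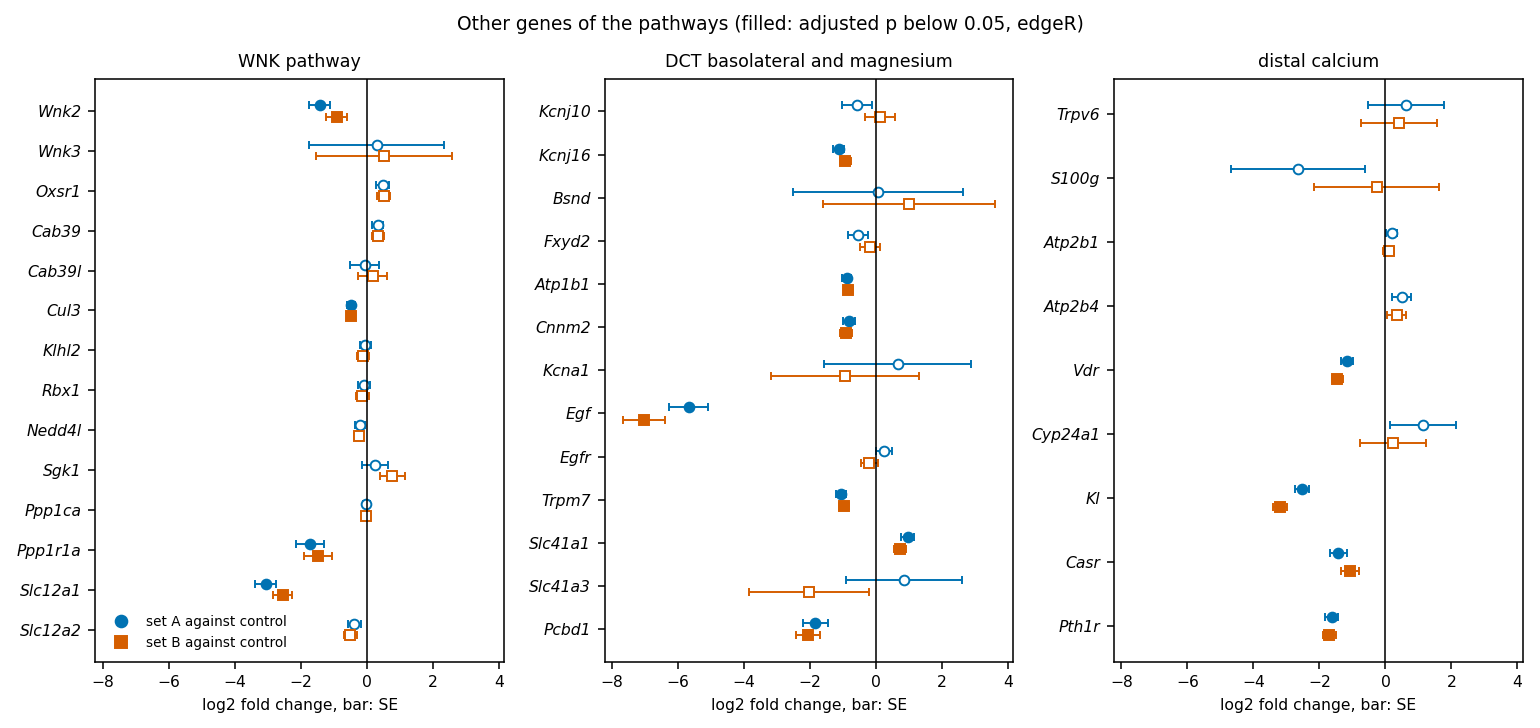
Log2 fold changes (horizontal axes, bars for SE) of 14 further WNK pathway genes, 13 genes of basolateral transport and magnesium handling and 9 genes of distal calcium handling in set A and set B against control, with filled symbols for an edgeR adjusted p below 0.05. In the first panel Wnk2, Cul3, Ppp1r1a and Slc12a1 carry filled symbols in both sets, and in the second panel Slc41a1 carries the filled symbols to the right of 0.

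Replicate 4 of set A was the highest of its set for 6 of the 10 genes (Slc12a3, Trpm6, Calb1, Slc8a1, Wnk4 and Stk39) and the lowest for Wnk1. Replicate 4 of set B was the highest for 7, the same 6 genes and Trpv5, and the lowest for Wnk1, while replicate 1 of set B was the lowest for 7. These replicates 4 are the smallest libraries of their sets, with 16814285 and 15367342 counts. The summed proximal tubule markers were lowest in the same kidneys, at 684.7 CPM (others 733.6 to 1277 CPM) in set A and 388.7 CPM (others 612 to 1329 CPM) in set B. Replicate 4 of set B also had the highest sum of thick ascending limb markers, 885.9 CPM against 316 to 329.7 CPM in the other 3. Without both replicates 4, 5 of the 10 genes were called for set A, with Stk39 added, and 4 for set B, without Pvalb, Trpv5 and Stk39. The part of library size and of the segment mixture in these levels was not tested.

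The genes whose log2 CPM followed that of Slc12a3 most closely over the 12 kidneys, among 8513 genes whose mean log2 CPM was 1 or more, were Emc6, Ik, Scnn1a, Lynx1 and Wdr13, with Pearson's r between 0.79 and 0.88. After the group means were subtracted they were Emc6, Wiz, Cdk14, Slc8a1 and Hmg20b, with r between 0.86 and 0.92. Of these, Slc8a1 is among the 10 genes described here, and Scnn1a encodes a subunit of the epithelial sodium channel of the distal nephron. After the same subtraction r with Slc12a3 was 0.82 for Calb1, 0.76 for Wnk4, 0.70 for Trpm6, 0.56 for Stk39, 0.06 for Trpv5, -0.04 for Wnk1 and -0.12 for Klhl3. The genes were chosen for these values, which share libraries, depth and group structure over 12 kidneys and are given as a description only.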

How the data were processed

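Stranded mRNA libraries of the 12 kidneys were sequenced as single reads. Deposited by the authors is a table of raw, unnormalized read counts for 23420 genes. Per the labels, FastQC, STAR, HTSeq and edgeR were used with the mm10 build. Tool versions, annotation release and strand setting are not given in the sources used here. Kidneys were grouped by title and group field, which contradict each other for the ischemic sets.

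The table was analysed in edgeR 4.0.16 (R 4.3.3). The edgeR filter (count of at least 10, total of at least 15) kept 11664 genes, TMM scaled the libraries, and 1 negative binomial model with a coefficient per group was fitted to all kidneys and tested two-sided by quasi-likelihood, with Benjamini-Hochberg adjustment over all genes and a threshold of 0.05. The standard errors were derived from the log2 fold change and the F statistic of this test, and the 95% intervals from them with a t quantile. CPM and ratios (log2 CPM with a prior count of 2) were compared by exact permutation. Library totals ran from 15367342 to 44793350 and the floor was 3 counts, for counting error only. The pooled Pvalb ratio has an exact binomial counting interval. Gene positions and exon lengths are from GENCODE M21 and promoter windows from RefSeq GRCm38.p6. The alternatives were DESeq2 1.42.0, limma-trend (limma 3.58.1), RLE size factors, no filter, a minimum of 1 CPM exceeded by 4 kidneys, fits without the group not compared, a block for the replicate number, thinned libraries, a prior count of 0.5 and leaving out single kidneys. The procedure was tested on simulated data for set A against control. It called 34 of 100 genes with a 2-fold change, 68 of 100 with a 4-fold change and 6 unchanged genes. A gene that did not pass may therefore still have changed. Python 3.11.15 was used with pandas 2.3.3, NumPy 2.4.6, matplotlib 3.10.9 and SciPy 1.17.1.

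The 10 genes, the marker lists and the further pathway genes were chosen with earlier results of these data known. All 10 genes are named throughout, as may be any gene of the lists of the WNK pathway, of basolateral transport and magnesium and of distal calcium. From the list of basolateral transport and magnesium, 3 genes are not reported here and were left out of its counts and median. From the lists of proximal tubule, thick ascending limb, collecting duct, injury, leukocyte and muscle genes, at most the 3 genes with the highest control CPM are named, apart from Tagln and the skeletal muscle genes, which are named for their calls or counts after their values were seen. Genes like Slc12a3 were the 5 with the highest Pearson correlation. PCR, plasma and tissue measurements were not used here.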

Additional observations from a re-analysis of the deposited data

Results flagged for a closer look

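Over the 29 combinations of gene and group with 4 kidneys that were examined, 5 held a kidney whose distance to the nearest other was above Dixon's limit as a share of the range of its group. Chance alone flags about 1 in 20 such groups. For Pvalb, control replicate 1 had 4.08 CPM, with the next kidney at 1.48 CPM, and set A replicate 2 had 0.128 CPM from 3 counts while the others had none, in which case any count at all in a single kidney passes the limit, so that this case is no measure of distance. For Calb1, set A replicate 4 had 375 CPM, with the next at 136 CPM. For Trpv5, control replicate 3 had 16.3 CPM, with the next at 7.07 CPM, and it is the control that was not below both ischemia sets. For Klhl3, set B replicate 3 had 0.870 CPM from 18 counts, with the next at 5.27 CPM.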

How the results depend on the processing

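Calb1, Slc8a1, Wnk1 and Klhl3 stayed lower and past the threshold in both sets under all 8 other settings and in all 12 fits that left out a kidney. In set B, Stk39 passed under 8 of 8 other settings and in 7 of 12 such fits, Trpv5 under 7 of 8 and in 7 of 12, and Pvalb under 7 of 8 and in 4 of 12. The members called with a kidney left out numbered 4 to 5 for set A and 4 to 7 for set B. Without replicate 4 of both ischemia sets, a setting chosen after seeing the data, 4 were called in set B, and the causes were not tested. The deviations of same-numbered kidneys from their group means had r between -0.055 and 0.045. No known pair was available for comparison, so these values cannot show whether kidneys shared a mouse or a batch. With the replicate block, 6 members were called in set B, where Pvalb had an edgeR adjusted p of 0.0691, and 4 in set A.

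Genes called in set B against set A numbered 27 with DESeq2, 0 with limma-trend, 6 without a filter, 0 with only these groups in the fit, 0 to 7 with a kidney left out and 8 without both replicates 4, and no member was among the calls in any of these fits. Values near 0 that passed no threshold changed sign. Against control, Wnk4 in set A was -0.00932 without a filter, -0.0695 without both replicates 4 and -0.0972 to 0.0697 with a kidney left out, Wnk4 in set B was -0.00873 without both replicates 4 and -0.0153 to 0.408 with a kidney left out, and Trpm6 in set A was -0.47 to 0.21. Set B against set A with a kidney left out ran from -0.49 to 0.32 for Calb1, -0.18 to 0.22 for Slc8a1, -0.21 to 0.28 for Stk39, -0.50 to 0.22 for Trpm6 and -0.0226 to 0.417 for Wnk4, and without both replicates 4 it was 0.11 for Calb1, -0.00346 for Slc8a1 and -0.10 for Stk39. The log2 ratio of Trpm6 to Slc12a3 differed from control by -0.297 to 0.219 for set A and -0.319 to 0.0236 for set B with a kidney left out. Of the numbers of called genes or members recomputed under these settings, 22 moved by over 1.5 times, within the ranges given here, and 104 did not. Depth limits Pvalb most, which held at most 85 counts in a kidney.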
